A study of Mus musculus with 13 samples.

Results

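The mouse kidney holds 2 clusters of stromal nuclei in these data, named stroma 1 and stroma 2, and 2167 of the 300755 open chromatin peaks were open in both of them and at least 2 times as open there as in any other main cluster when all samples were pooled. The peaks were chosen by measured values. The nucleus by peak table, in which each peak is either open or closed in a nucleus, was summed per cluster over all samples and scaled to open calls per 1000000 open calls of that cluster (CPM). A peak was kept where it reached 10 CPM in both stromal clusters and where the lower of both values was at least 2 times the highest value among the other 11 main clusters (the clusters NP_LOH and PT_out were left out). The levels of these peaks in the clusters are therefore a description and were not tested.

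Nuclei came from kidneys of newborn mice (P0, 2 samples), 3-week-old mice (P21, 1 sample) and 8-week-old mice (P56, 2 samples), and open chromatin was read by single nucleus ATAC-seq, in which a transposase inserts adapters into accessible DNA. The P21 and P56 samples are together called adult here. The older mice were perfused before a weighed piece of kidney was lysed in a larger volume, while both kidneys of the newborn mice were taken without a stated perfusion, so stage and preparation cannot be told apart. Neither strain nor genotype is given for these mice in the labels, and nothing says which samples share a litter or a mouse, so p-values measure the spread between these samples.

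The deposited table held 28316 nuclei and 166031996 open calls, with 3361 to 7129 nuclei per sample. Stroma 1 held 690 and 491 nuclei at P0 and 90 to 107 in the adult samples, and stroma 2 held 1309 and 1145 at P0 and 206 to 535 in the adult samples. The P0 samples supplied 86.2% of all open calls of stroma 1 and 81.5% of those of stroma 2, so a rule applied to the pooled nuclei is weighted to newborn stroma. Within single samples, 1830 and 1798 of the members met the same rule at P0 but only 132, 354 and 199 in the P21 and P56 samples, and both stromal values stood above all other main clusters for 2156 and 2157 at P0 and for 653, 984 and 927 in adult. Barcode sequences were shared between samples in 477 of 27834 cases.

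Stromal cells fill the space between the tubules of the kidney and include fibroblasts, pericytes and, along the vessels, contractile mural cells. In the developing kidney the stromal progenitors express Foxd1 and give rise to most of these cells, and signals from the stroma help to steer the differentiation of the nephron progenitors. Distal regulatory elements, which open in a cell-type-specific manner and carry binding sites for transcription factors, set much of the difference between cell types, and the E-box CANNTG is the core site bound by basic helix-loop-helix factors such as TCF21 and TWIST1.

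The following sites, read from GRCm38 at 7 bases on each side of the match, show the motifs of the central 300 bp that the results below come back to, mostly in members at or inside genes of the lists used here. Capitals mark the motif, and each site is written 5′ to 3′ on the strand given.
Dcn start site, E-box CAGCTG, chr10:97479574-97479593, plus strand: tgggtgtCAGCTGgatgcgc
Col3a1 start site, E-box CAGATG, chr1:45311449-45311468, plus strand: catgctcCAGATGtgctgtt
Rgs5 start site, E-box CAGCTG, chr1:169655520-169655539, plus strand: agacggtCAGCTGttgagag
Tpm2 start site, E-box CAGCTG, chr4:43523817-43523836, plus strand: ctcacggCAGCTGcctgggc
Acta2 start site, E-box CAGATG, chr19:34255021-34255040, plus strand: ggttttgCAGATGacacaca
Runx2 intron, E-box CAGCTG, chr17:44598269-44598288, plus strand: caggaatCAGCTGtttgcat
Vcan intron, RUNX motif, chr13:89670121-89670141, minus strand: cttctgtTGTGGTTtaatttg
Itga8 intron, RUNX motif, chr2:12213260-12213280, plus strand: agcatccTGTGGTTgcaagga
Itga9 intron, EBF motif, chr9:118873791-118873814, plus strand: ttgggtcTCCCTGGGGActtggat
Itga9 intron, CArG box, chr9:118873734-118873757, plus strand: gcctggaCCTTATAAGGcatagcg
Cspg4 intron, RUNX motif, chr9:56874359-56874379, plus strand: ctccatcTGTGGTTatgcatc
Cspg4 intron, MEF2 motif, chr9:56874376-56874399, plus strand: catccagCTATAAATAGgggctca
Tcf20 intron, E-box CAGCTG, chr15:82983966-82983985, plus strand: agacaggCAGCTGtggaggg
Upstream of Slco2a1, E-box CAGCTG, chr9:102978349-102978368, plus strand: gaaacaaCAGCTGgatttaa
The first 5 lie in members over a start site, and the Cspg4, Tcf20 and Slco2a1 sites lie in members whose stage difference is described further on.

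Across the 2167 peaks the median level was 16.4 CPM in stroma 1 and 18.4 CPM in stroma 2, against medians of 0.337 to 1.53 CPM in the other main clusters. Over all 300755 peaks the medians of the stromal clusters were 0.857 and 0.837 CPM. The lower stromal value stood at a median of 4.6 times the highest other cluster, and 1536 members reached 3 times, 1012 reached 5 times and 422 reached 10 times. In these pooled sums 2023 members lay within 2-fold of each other in the stromal clusters, 38 were more than 2-fold higher in stroma 1 and 106 in stroma 2. For comparison, 16899 other peaks reached 10 CPM in both stromal clusters without standing 2-fold above the rest.

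The cluster next in level was endothelial cells for 513 members, nephron progenitors for 509 and podocytes for 412, and it was the convoluted or straight proximal tubule (PCT or PST) for only 34 and 50. At the 2-fold limit, the members just inside it lay near Sox4, Etv6, Zfp703 (2 members) and Fam91a1, at 2.001 to 2.008 times the next cluster. The peaks just outside it, near Nkd1, Oaf, Copb1, Maml2 and Col1a2, stood at 1.999 to 2 times. The Col1a2 peak, for example, had 28.25 CPM in the lower stromal cluster and 14.13 CPM in podocytes.

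Ranked by the lower of both stromal values, the members highest in level lay at Gng8, a G protein gamma subunit, and upstream of Cyp2s1, a cytochrome P450. The Gng8 start site had 66.9 CPM in stroma 1, 74.3 in stroma 2 and 31.7 in podocytes, the next cluster. A distal member upstream of Cyp2s1 had 68.4 and 60.7 CPM, and 5.85 CPM in immune cells, the next in level. Further members of this kind lay at Arap1 (start site, 60.6 and 62.4 CPM), in introns of Slc14a2, Phc2 and Pawr, near Rem1, Thap1 and Gm10295, and in Dnm3 over the starts of the noncoding Dnm3os and Mir199a-2, with 52.3 and 55.8 CPM. Dnm3os is the antisense transcript that carries the miRNAs miR-199a and miR-214, known from mesenchymal cells.

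In each sample the members took a share of the open calls that set the stromal clusters apart. It was 4.65% and 4.49% in stroma 1 of the P0 samples, 0.906% in the P21 sample and 1.46% and 1.09% in the P56 samples. In stroma 2 the P0 samples had 4.83% and 4.67%, the P21 sample had 3.07% and the P56 samples had 3.97% and 3.04%. All other main clusters had 0.122% to 0.605% in every sample, so stroma 1 of the adult samples stood above them but far below stroma 2 of the same samples.

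**Figure D1:**
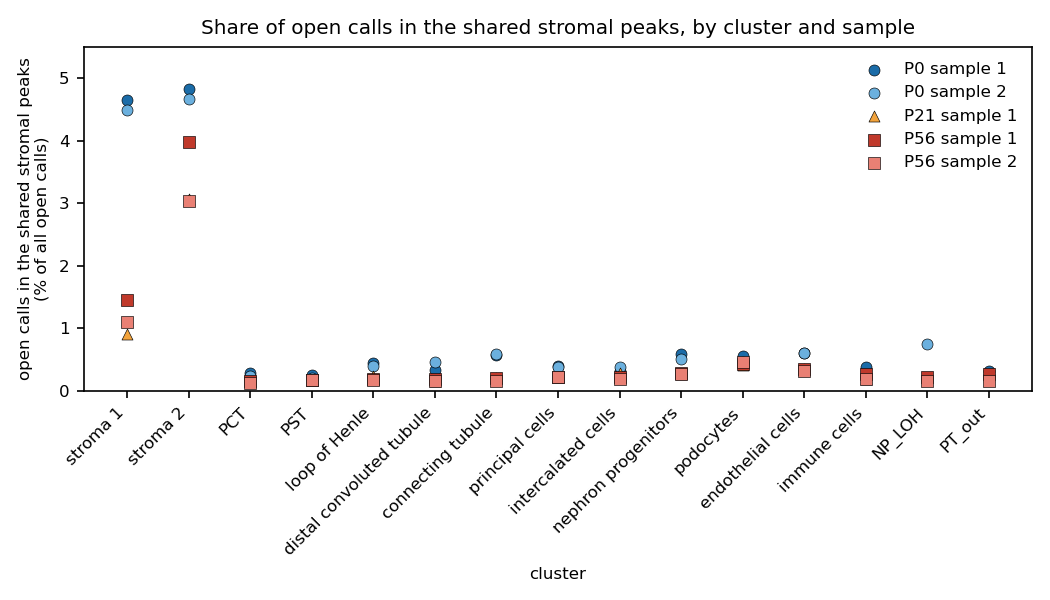
Share of all open calls that fell in the 2167 shared stromal peaks (y axis, %), for each cluster (x axis) and sample (points). The P0 samples lie at 4.49% to 4.83% in both stromal clusters, the adult samples at 3.04% to 3.97% in stroma 2 (the P21 and second P56 points coincide) and at 0.906% to 1.46% in stroma 1, and no other cluster passes 0.748%.

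Single nuclei gave the same picture. Each nucleus was thinned to 1000 open peaks, and nuclei with fewer were left out, which kept 673 and 481 stroma 1 nuclei at P0 and 71, 93 and 97 in the adult samples. The median number of members open was 48 and 47 in stroma 1 at P0, and 10, 14 and 10 in the P21 and P56 samples. Stroma 2 had medians of 52 and 49 at P0 and 36, 42 and 39 in the adult samples, while endothelial nuclei had 2 to 5 and PCT nuclei 1 to 2. Of these adult stroma 1 nuclei, 22.5%, 33.3% and 32.99% reached 17 members, the 5th percentile of the P0 nuclei of that cluster. Cells are not replicates, so these distributions carry no test.

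**Figure D2:**
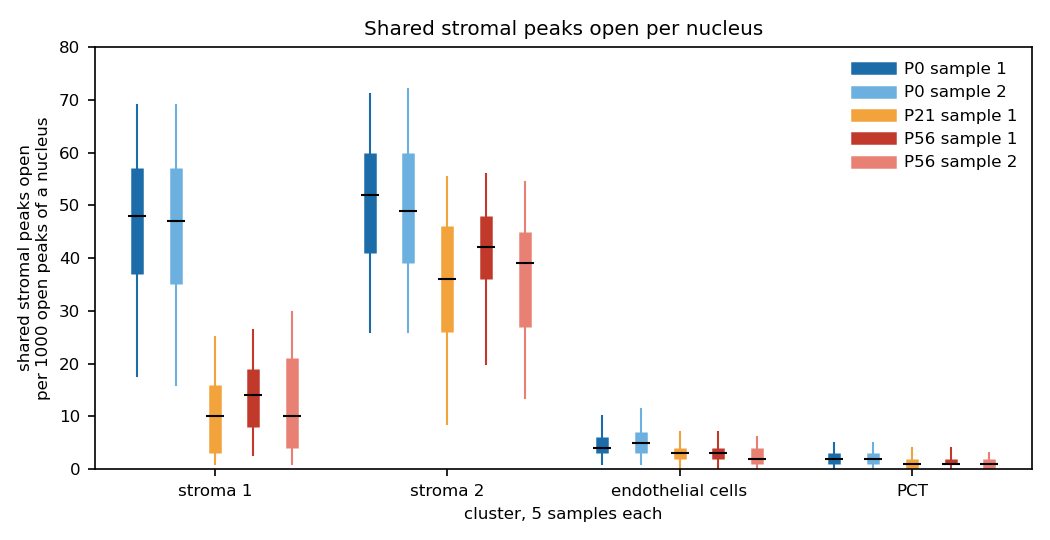
Shared stromal peaks open per 1000 open peaks of a nucleus (y axis), by cluster and sample, with the median as a black line, the quartiles as a box and the 5th to 95th percentile as a thin line. Adult stroma 1 nuclei (medians 10 to 14) lie between PCT or endothelial nuclei and the P0 stroma 1 nuclei (48 and 47).

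The stroma markers Col1a1, Col1a2, Col3a1, Pdgfra, Pdgfrb, Dcn, Lum, Meis1, Postn and Itga8 were each most open in stroma 1 or stroma 2 over all samples, while Tcf21 and Foxd1, which podocytes also use, were most open in podocytes. Foxd1 was also more open in nephron progenitors (38.4 CPM) than in stroma 1 (33.8 CPM) and stroma 2 (22.5 CPM). Summed over this list of 12 genes, peaks had 985 and 981 CPM in stroma 1 at P0 but 425, 622 and 494 CPM in the P21 and P56 samples, where other main clusters ranged from 100 to 534 CPM. In stroma 2 the sum was 820 to 997 CPM in all 5 samples. The 8 markers of the proximal tubule had 161 and 188 CPM in stroma 1 at P0 and 703, 255 and 527 CPM in the adult samples, against 724 to 1607 CPM in PCT and PST themselves, and the 8 endothelial markers had 289 to 298 CPM at P0 and 395 to 504 CPM in adult. Lum was at 0 in stroma 1 of all 3 adult samples, and Postn at 0 in that of P21. The label stroma is therefore met by stroma 2 in every sample and by stroma 1 at P0, whereas the adult stroma 1 libraries hold less of the stroma markers and more of those of proximal tubule and endothelium. Markers of distal tubule (34.5 and 43.2 CPM at P0, 111 to 157 CPM in adult), of podocytes (406 and 426, and 483 to 517 CPM) and of the loop of Henle (16.7 and 21.4, and 23.5 to 85.7 CPM) were higher in them too, those of nephron progenitors (159 and 157, and 74 to 95.2 CPM) and intercalated cells (93.9 and 84.5, and 33.6 to 57.8 CPM) were lower, and those of immune cells and principal cells overlapped between the stages.

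Peaks shared by PCT and PST, found by the same rule, took 4.42%, 1.54% and 3.46% of the open calls of stroma 1 in the P21 and P56 samples and 0.568% and 0.642% at P0. When the nuclei with more than 2% of their open peaks among these were left out (45 of 90, 16 of 107 and 33 of 101 in the adult samples), the members still took 1.64%, 1.57% and 1.58% of the open calls of adult stroma 1, against 4.70% and 4.57% at P0. Fewer cells of a type in a cluster and less accessibility per cell cannot be told apart in the sums that follow.

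Most members, like most of all peaks, lay away from genes' starts. Of all members, 41.8% were distal, 40.7% intronic, 13.8% exonic and 3.69% within 5 kb of a start as promoters, so that 82.5% were distal or intronic, against 78.3% of all peaks, 70.3% of the peaks shared by PCT and PST and 25.002% of the peaks open in both stromal clusters under the 2-fold limit. A transcription start was covered by 116 members (5.35%), against 7.43% of all peaks and 66.7% of those open in both stromal clusters under the 2-fold limit. The median distance to the nearest coding start was 41919 bp. Members were broad, with a median width of 855 bp against 414 bp over all peaks, and 1041 bp over the peaks open in both stromal clusters under the 2-fold limit.

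Some members lay close together. The next member on the chromosome was within 10 kb for 263 of them and within 200 kb for 1205 of 2167, which was not compared with other peaks. The window at chr10:76600001-76800000, which holds the collagen VI genes Col6a1 and Col6a2, and the window at chr7:71200001-71400000, with Gm10295 as its nearest coding gene, each held 7 members. Windows between Eya4 and Tcf21 on chromosome 10 and beside Lclat1 on chromosome 17 held 6 each, and 5 lay in each of the windows at Col6a3, Ddr2, Pdgfrb, Gucy1a1 with Gucy1b1, Gucy1a1 with Map9, and Camk2n1. Gucy1a1 and Gucy1b1 encode the subunits of the nitric oxide receptor guanylate cyclase, Ddr2 is a collagen receptor, and Pdgfrb is the PDGF receptor of pericytes.

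By gene, Gm10295 was in or nearest to 9 members, Eya4 and Lrmda to 8, Meis1 to 7, and Ebf1, Fhl2, Flrt2, Lclat1, Map3k7, Nuf2, Pdzd2, Tenm3 and Zfp608 to 6 each. Among the 35 transcription factors of the stroma in the list used, 17 had at least 1 member in the gene body or nearest to it, with 44 members in all. Over all 21924 coding genes of the annotation the share was 7.22%. The peaks were chosen as most open in stroma, and the lists with earlier results of these data known. Higher shares in this and the following lists are therefore a description and no result about the members. Besides Meis1 and Ebf1, the factors with most members were Runx2 and Zeb2 with 5 each and Tcf21 and Tbx3 with 3 each. Of 30 genes of the extracellular matrix, 22 had members (48 in all), with 4 each at Col1a1, Col3a1, Col6a2, Fbn1 and Fbln1.

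Growth factor receptors and ligands had members at 12 of 35 genes, led by Pdgfrb and the Hedgehog effector Gli2 with 5 each. Contractile and pericyte genes had members at 11 of 24, adhesion and guidance genes at 13 of 23 with 5 at Cdh11, a mesenchymal cadherin, and genes of retinoid signalling at 3 of 13. None of the markers of nephron progenitors, proximal tubule, loop of Henle, distal tubule or principal cells had a member. Over all 21924 coding genes only 7.22% had one, and the rule kept only peaks lower in those clusters. The absence from these short lists is therefore no result about the members. Podxl among the 7 podocyte markers, Atp6v0d2 among 5 of intercalated cells, Cdh5 among 8 of endothelium (5 members, nearest start only) and Ptprc among 7 of immune cells had at least 1.

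Whether the members were used alike at both stages was tested within each cluster. In stroma 1, 961 of the 2167 members passed the filter on low counts, which asks for 18.6 CPM in 2 samples. Of these, 762 passed it through the P0 samples alone, and a member that passed in this way was bound to be high at P0, so the counts over tested members are a description. Of all 15376 peaks tested, 2256 passed in this way, so the shares of members and of all peaks given next are not alike in this. Of the 961, 864 were higher at P0 (89.9%, against 20.8% of all 15376 peaks tested) and 8 were higher in adult (0.832%, against 17%) at an adjusted p under 0.05 of edgeR's quasi-likelihood test. Without the first or the second P0 sample, 645 and 698 members were tested. Their median log2 differences were 2.65 and 2.80, against -0.01 over all peaks tested in each case. With no filter, 2026 of all 2167 members were higher at P0 and 2 in adult, against 10.1% and 2.01% of all peaks. The rule still asked for 10 CPM in pooled sums that came mostly from P0, while all peaks had a median of 0.857 CPM. These shares are therefore not alike either. Of the 16899 peaks open in both stromal clusters under the 2-fold limit, 12624 were tested with the filter. There, 15.9% were higher at P0 and 11.2% in adult. The median log2 difference of the tested members was 2.68, against -0.02 over all peaks tested.

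The raw numbers behind this were small on the adult side. A member was open in a median of 71 and 57 nuclei of stroma 1 at P0 and in 1, 1 and 2 nuclei in the P21 and P56 samples, and 255 members (11.8%) were open in no adult nucleus of that cluster. Since 3 open calls over the adult group correspond to 2.66 CPM, against a median of 18.3 CPM at P0, these members allow only a lower bound on the fold. A further group brought the members with 3 or fewer open adult nuclei to 1074. Without the nuclei rich in PCT and PST peaks, 282 members could be tested and 218 were higher at P0 and 13 in adult, against 875 and 677 of all 8194 peaks tested.

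Stroma 2 had more adult nuclei, and all 2167 members were tested. There, 1163 were higher at P0 (53.7%, against 26.5% of all 53951 peaks tested) and 227 were higher in adult (10.5%, against 23.7%). The 227 became 130 with DESeq2, where the calls higher in adult over all peaks fell from 12806 to 8296. When P0 sample 1 or 2 was left out, the median log2 difference of the members was 0.81 or 0.86. The median log2 difference was 0.73, against 0.02 over all peaks, and the pooled medians were 19.7 CPM at P0 and 12.1 CPM in adult. With no filter on low counts, 1359 members were higher at P0 and 73 in adult, against 13.5% and 3.76% of all peaks, most of which are far lower in level. Of the 16899 peaks open in both stromal clusters under the 2-fold limit, 16.3% were higher at P0 and 18.4% in adult with the filter. Of the members, 335 passed the filter, which asks for 5.32 CPM in 2 samples here, through the P0 samples alone. Of all 53951 peaks tested, 8864 did so. In the values by gene that follow, members that passed a cluster's filter through 1 stage alone are given without a test in that cluster. Genes with several members are shown by 1 or 2 of them, and the others need not follow the same course. The rule pooled nuclei that came mostly from P0. When members were chosen instead by the mean of the CPM of each sample, 918 peaks met the rule. In stroma 2, 316 of these were higher at P0 and 207 in adult (34.4% and 22.55%, against 26.5% and 23.7% of all peaks tested). Their median log2 difference there was 0.15, against 0.02 over all peaks. In stroma 1, 553 and 32 of 683 tested were called (81.0% and 4.69%, against 20.8% and 17% of all peaks tested). Chosen by the adult samples alone, 403 peaks met the rule, 198 of them members, and the direction in stroma 2 turned: 34 were higher at P0 (8.44%) and 204 in adult (50.6%, median log2 difference -0.54). In stroma 1, 83 and 38 of 228 tested were called in that set (36.4% and 16.7%, median 0.44). Each set is weighted to the stage that chose it.

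Both clusters gave a call in the same direction for 484 members higher at P0 (against 10.5% of all 15149 peaks tested in both) and for 6 higher in adult (against 12.2%). A further 63 were higher at P0 in stroma 1 and in adult in stroma 2 (against 1.24%), and none went the other way (against 0.033%), out of 961 members tested in both. Of these 961, 762 passed the filter of stroma 1 through the P0 samples alone and were bound to be high at P0 there. These counts are therefore a description and no agreement between independent tests.

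The stage difference itself differed between the clusters for 950 members, or for 332 with DESeq2 and 577 without the first P56 sample. It was larger toward P0 in stroma 1 for 941 of 2167 (43.4%, against 6.61% of all 66107 peaks tested) and in stroma 2 for 9 (0.415%, against 1.05%). All 2167 members passed the filter of this test, which P0 sums alone could meet. Only 961 of them passed that of stroma 1, 762 of these through the P0 samples alone. The counts over members are therefore a description. With no filter, 988 were positive and 3 negative, against 1.86% and 0.0804% of all peaks. Of the 16899 peaks open in both stromal clusters under the 2-fold limit, 10.0% were positive and 0.444% negative with the filter. The median of this difference was 1.85 on the log2 scale, or 1.53 with the members open in no adult nucleus set to their bound, against 0.25 over all peaks. Beside it stand the smaller number of adult stroma 1 nuclei and their larger share of PCT and PST peaks, whose part in the result was not tested. In the set of 918 chosen with equal weight for each sample, the difference was positive for 458 (49.9%) and negative for 8 (0.872%). In the set of 403 it was positive for 99 (24.6%) and negative for 6 (1.49%).

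**Figure D3:**
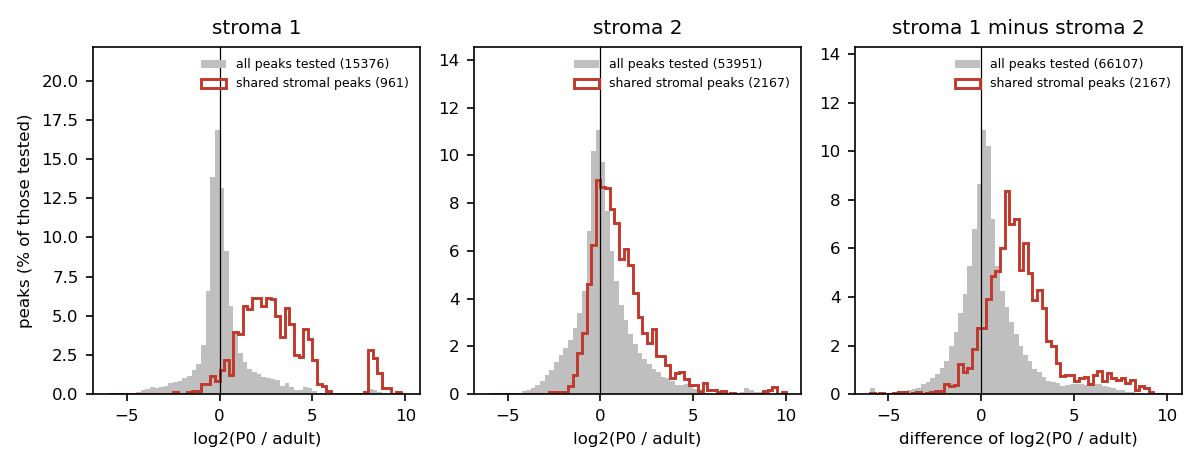
Histograms of the fitted log2 difference P0 over adult in stroma 1 (left), stroma 2 (middle) and of the first minus the second (right), with the share of peaks on the y axis (%), in grey for all peaks tested and as a red line for the shared stromal peaks. The red line is shifted to the right in each panel (medians 2.68, 0.73 and 1.85), and its separate group beyond 7 on the left holds members with no open adult nucleus, whose fitted value is no bound.

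Among the 44 members of the stromal transcription factors, 21 of 24 tested were higher at P0 in stroma 1 and 19 of 44 in stroma 2, where 3 were higher in adult. The counts of this and the following lists are to be read against those of all tested members, of which 89.9% were higher at P0 in stroma 1, and 53.7% at P0 and 10.5% in adult in stroma 2. The lists were not tested against each other or against the other members. The median log2 difference in stroma 2 was 0.36 for the members of this list, 0.29 for the matrix list, 0.10 for growth factor genes, 0.76 for contractile and pericyte genes and 1.00 for adhesion and guidance genes, against 0.73 for all members and 0.02 for all peaks tested. Meis1, the homeobox factor used as a marker of kidney stroma, had an exonic member beside its start with 27.2 and 26.7 CPM in stroma 1 at P0 and 3.4, 13.4 and 13 CPM in the P21 and P56 samples. In stroma 2 the same member had 30 and 30.3 CPM against 12.5, 20.2 and 12.4 CPM. No adult sample reached a P0 sample in either cluster, and the log2 difference in stroma 2 was 0.94 ± 0.22 (SE, adjusted p = 0.000978).

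Runx2, known as the master factor of osteoblasts and active in mesenchymal cells, differed between the clusters. Its intronic member with the E-box printed above had 30.9 and 31.1 CPM at P0 and 6.8, 0 and 3.73 CPM in adult in stroma 1, but 30.4 and 29.2 CPM against 34.1, 42.6 and 28.3 CPM in stroma 2. The difference in stroma 2 did not pass the test (-0.25 ± 0.19, adjusted p = 0.274), and the difference between clusters did (3.50 ± 0.49, adjusted p = 2.23e-09). An exonic member of Nfia, a nuclear factor I gene, followed the same course: 29.3 and 34.5 CPM at P0 and 0, 0 and 3.73 CPM in adult stroma 1, against 25.5 to 31.9 CPM in all 5 samples of stroma 2.

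The region between Eya4 and Tcf21 showed both courses side by side. Eya4 is a coactivator with phosphatase activity, and Tcf21 is the basic helix-loop-helix factor of renal mesenchyme and podocytes. One member there, 104538 bp from the Eya4 start, had 42.4 and 42.6 CPM at P0 and 3.4, 3.36 and 1.86 CPM in adult stroma 1, while in stroma 2 it rose from 42.7 and 46.4 CPM to 69.4, 63.8 and 63.5 CPM (-0.54 ± 0.16, adjusted p = 0.00757). A second member 54804 bp from that start had 28.6 and 24.9 CPM at P0 and 1.14, 1.6 and 0.69 CPM in adult stroma 2, so that its adult values lay below those at P0 where those of its neighbour lay above.

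Of 6 members at Ebf1, an early B cell factor gene that is also used in mesenchymal cells, 1 distal member 172644 bp from its start had 24.3 and 23.6 CPM at P0 and no open nucleus in any adult sample of stroma 1, at least 9.03-fold lower. In stroma 2 it had 30 and 27.1 CPM at P0 and 17.1, 16 and 8.29 CPM in adult (1.08 ± 0.24, adjusted p = 0.000507). The first of the intronic members changed less, with 25.1 and 21.4 CPM against 10.2, 20.2 and 9.32 CPM in stroma 1. The start of Twist1, whose product binds E-boxes, had 41.6 and 43.2 CPM at P0 and 30.6, 16.8 and 26.1 CPM in adult stroma 1 (0.89 ± 0.26, adjusted p = 0.00376), and 23.9, 23.1, 22.8, 14.4 and 20 CPM in the P0, P21 and P56 samples of stroma 2, where the difference did not pass the test.

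The start of Zeb2, a zinc finger repressor of epithelial genes, fell in stroma 2 from 25.3 and 24.4 CPM to 11.4, 11.7 and 8.29 CPM (1.26 ± 0.24, adjusted p = 0.000138). In stroma 1 it had 17.3 and 15.8 CPM at P0, 3.4 CPM at P21 and no open nucleus in either P56 sample, and did not pass the filter there. The difference between clusters was 3.05 ± 1.03 (adjusted p = 0.0419).

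Matrix genes gave 15 of 17 tested members higher at P0 in stroma 1. In stroma 2, 22 of 48 were higher at P0 and 7 in adult. The start of Col1a1, the chain of fibrillar collagen I, had 19.4 and 23.9 CPM at P0 and 6.8, 16.8 and 5.59 CPM in adult in stroma 1. In stroma 2 it had 17.8 and 19.9 CPM at P0 and 22.8, 16 and 24.9 CPM in adult, with overlapping stages. The stage difference itself differed between the clusters (1.65 ± 0.46, adjusted p = 0.00977).

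The collagen VI genes, whose product forms beaded filaments around cells, showed the same split at their starts. The Col6a2 start had 39 and 38.2 CPM at P0 and 10.2, 10.1 and 18.6 CPM in adult stroma 1, while all 5 samples of stroma 2 lay between 33 and 44.9 CPM. The Col6a1 start had 12.6 and 12.4 CPM at P0 and 0, 0 and 1.86 CPM in adult stroma 1, against 12.5 to 15.9 CPM throughout stroma 2. At Col6a3 the values were 19.6 and 17.4 CPM against 6.8, 3.36 and 1.86 CPM in stroma 1, and 17.4 to 20.2 CPM in stroma 2. For all 3 the difference between clusters passed the test, with adjusted p of 0.000186, 0.00362 and 0.000444. The Col6a1 and Col6a3 starts did not pass the filter in stroma 1, and their adult values there rest on few nuclei. Col6a1 was open in 0, 0 and 1 nuclei of the P21 and P56 samples, and Col6a3 in 2, 1 and 1.

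Col3a1 and Dcn went another way. The start of Col3a1, collagen III, fell in stroma 2 from 27.2 and 26.1 CPM to 14.8, 14.9 and 15.9 CPM (0.82 ± 0.21, adjusted p = 0.00275). That of Dcn, the small proteoglycan decorin that binds collagen fibrils, fell there from 17.8 and 18.4 CPM to 10.2, 9.04 and 9.67 CPM (0.94 ± 0.26, adjusted p = 0.00401). Both stages were apart in each case, and neither gene's difference between clusters passed the test.

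Enzymes and glycoproteins of the matrix were mixed as well. The start of Lox, the oxidase that cross-links collagen and elastin, was higher at P0 in stroma 2 (0.74 ± 0.22, adjusted p = 0.00724). An intron of its relative Loxl1 had 39 and 38.2 CPM at P0 and 10.2, 3.36 and 13 CPM in adult stroma 1, but rose in stroma 2 from 30.4 and 29.4 CPM to 36.4, 51.1 and 60.1 CPM (-0.75 ± 0.18, adjusted p = 0.00158). Fbln5, which organises elastic fibres, had an intronic member with 40.8 and 37 CPM at P0 and 6.72 to 10.2 CPM in adult stroma 1, against 26.9 to 40.7 CPM in stroma 2 (difference between clusters 2.74 ± 0.36, adjusted p = 2.93e-10).

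Among the 23 members at growth factor genes, 4 of 9 tested were higher at P0 in stroma 1, and 9 were higher at P0 and 4 in adult of 23 in stroma 2. Pdgfra and Pdgfrb, the PDGF receptors of fibroblasts and pericytes, had starts that were open in adult stroma 2. The Pdgfra start had 14.2 and 13.5 CPM at P0 and 20.5, 18.1 and 22.8 CPM in adult there (-0.53 ± 0.23, adjusted p = 0.051), and 14.1 and 12.7 CPM against 0, 3.36 and 3.73 CPM in stroma 1. The Pdgfrb start had 25.9 and 26.7 CPM against 10.2, 23.5 and 20.5 CPM in stroma 1 (adjusted p = 0.132) and 17 to 29.7 CPM in stroma 2.

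An intronic member of Pdgfrb rose in stroma 2 from 31.2 and 29.9 CPM to 52.4, 58 and 63.5 CPM (-0.93 ± 0.17, adjusted p = 8.64e-05), with no overlap of the stages, while the differences of the other 4 Pdgfrb members there, its start included, lay between -0.23 and 0.47 and did not pass the test. Agtr1a, the angiotensin II receptor, had a member that rose in stroma 2 as well, from 23.6 and 27.2 CPM to 46.7, 55.3 and 29 CPM (-0.78 ± 0.20, adjusted p = 0.00208), and so did an intron of Tgfbr3, the co-receptor betaglycan (-0.68 ± 0.20, adjusted p = 0.00643). Going down in stroma 2 was an intron of Ednra, the endothelin receptor, from 29.5 and 31.2 CPM to 7.97, 15.4 and 5.52 CPM. A second intronic member of Ednra had 11.1 and 11.4 CPM against 11.4, 13.8 and 11.7 CPM. Among the 5 intronic members of Gli2, the adult values in stroma 2 lay below those at P0 in all but 1. The lowest had 12.9 and 14.1 CPM at P0 and 0, 0 and 0.69 CPM in adult, and the exception had 18.1 and 18.1 CPM against 15.9, 29.3 and 15.2 CPM (-0.23, adjusted p = 0.431).

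Among the contractile and pericyte genes, more members were called higher at P0 than in adult in both clusters, as counted below. The members at Tpm2, Acta2 and Cspg4 described first were higher in adult or differed between the clusters. Tpm2, a tropomyosin of smooth muscle, rose in both clusters: its start had 29.6 and 27.3 CPM at P0 and 47.6, 57.1 and 46.6 CPM in adult stroma 1, and 39.7 and 46 CPM against 69.4, 58.5 and 75.9 CPM in stroma 2 (-0.68 ± 0.23, adjusted p = 0.0147, and -0.65 ± 0.17, adjusted p = 0.00292). Acta2, smooth muscle actin, differed between the clusters. Its start had 27.2 and 21.1 CPM at P0 and 37.4, 53.8 and 24.2 CPM in adult stroma 1, with overlap, while in stroma 2 it fell from 38 and 33 CPM to 17.1, 20.7 and 24.2 CPM (0.76 ± 0.20, adjusted p = 0.00272), and the difference was -1.12 ± 0.30 (adjusted p = 0.00945).

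Cspg4, the NG2 proteoglycan of pericytes, went further in that direction. The intronic member with the RUNX and MEF2 motifs printed above had 17.3 and 14.8 CPM at P0 and 1.14, 2.13 and 1.38 CPM in adult stroma 2, whereas in stroma 1 it had 9.94 and 13.4 CPM at P0 and 27.2, 20.2 and 7.45 CPM in adult (difference between clusters -3.59 ± 0.68, adjusted p = 1.53e-05). The adult values in stroma 1 rest on few nuclei, since 1 open nucleus of the P21 sample is worth 3.4 CPM. The start of Rgs5, a regulator of G protein signalling that marks pericytes, had 16.5 and 10.9 CPM against 3.4, 20.2 and 14.9 CPM in stroma 1, and fell in stroma 2 from 18.7 and 16.2 CPM to 7.97, 13.3 and 5.52 CPM (0.89 ± 0.28, adjusted p = 0.0107). Its intronic member had 25.3 and 23.3 CPM at P0 and 20.5, 36.7 and 26.9 CPM in adult stroma 2 (-0.27 ± 0.20, adjusted p = 0.267).

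Over the whole list, 8 of 13 tested members were higher at P0 and 1 in adult in stroma 1, 12 and 2 of 19 in stroma 2, and the difference between clusters was positive for 3 and negative for 2 of 19, against 43.4% and 0.415% of all members and 6.61% and 1.05% of all peaks. Itga8, the integrin chain of mesenchymal cells around the ureteric bud, was among those that fell: its member at chr2:12221690-12222423 went from 44.3 and 43.6 CPM at P0 to 7.97, 1.06 and 0.69 CPM in stroma 2 (4.20 ± 0.37, adjusted p = 4.52e-09), and from 26.7 and 26.4 CPM to 0, 10.1 and 1.86 CPM in stroma 1.

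**Figure D4:**
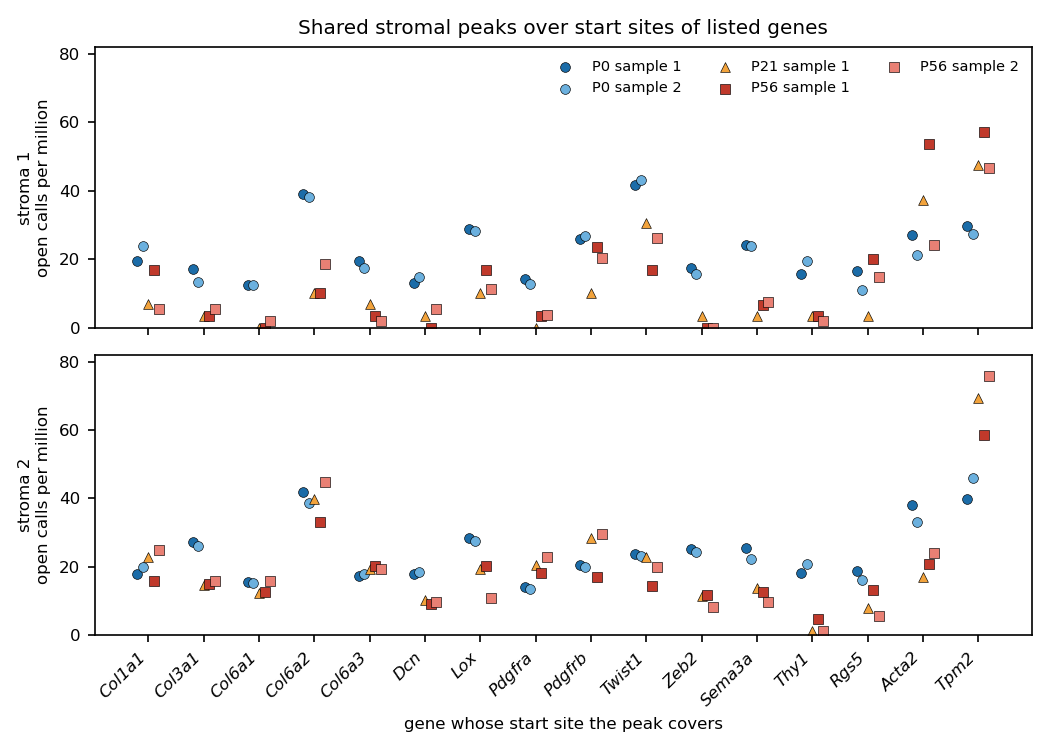
Level in CPM (y axis) of the shared stromal peaks that cover the start of a listed gene (x axis), in each sample of stroma 1 (top) and stroma 2 (bottom). Adult points lie under both P0 points for most genes in stroma 1 but above them for Tpm2 in both clusters, and they overlap the P0 points in stroma 2 for Col1a1, Col6a2 and Pdgfrb.

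Adhesion and guidance genes had 13 of 15 tested members higher at P0 in stroma 1, and 16 of 24 in stroma 2 with 3 higher in adult. Itga9, an integrin chain that binds tenascin, had an intronic member at chr9:118629733-118630645 with 49.9 and 48.2 CPM at P0 and 10.2, 6.72 and 3.73 CPM in adult stroma 1, while all samples of stroma 2 lay between 55.8 and 62.8 CPM (difference between clusters 3.15 ± 0.34, adjusted p = 3.28e-12). Its member with the EBF motif and the CArG box, also intronic, rose in stroma 2 from 18.8 and 21.2 CPM to 34.1, 38.8 and 41.4 CPM (-0.94 ± 0.18, adjusted p = 0.000167), and had 25.9, 25.2, 37.4, 33.6 and 16.8 CPM in stroma 1. The starts of Sema3a, a secreted guidance cue, and Thy1, a surface glycoprotein of fibroblasts, were lower in adult stroma 2. Thy1 had 18.2 and 20.7 CPM at P0 and 1.14, 4.79 and 1.38 CPM in adult there. Of the 3 members at retinoid genes, 2 were higher at P0 in stroma 1, and 1 was higher at P0 and 1 in adult in stroma 2. The member higher at P0 in stroma 2 was that at Crabp2, a retinoic acid binding protein.

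Members whose adult values lay far below those at P0 in both clusters lay in introns of Ntrk2, Sclt1, Ntng1 and Synpo2, in an intron near Mrpl23, and at distal sites near Flrt2, Otud1, Hspa12b and Auts2. The Synpo2 member, in the gene of an actin-bundling protein, was open in no adult nucleus of either cluster. It had 21.2 and 21.1 CPM in stroma 1 and 27.3 and 29.7 CPM in stroma 2 at P0, so that the pooled level was at least 7.96-fold and 39.9-fold lower in adult. Flrt2, a cell surface guidance protein, and Auts2 also had no open adult nucleus, with bounds of 9.56-fold and 17.4-fold for the first and 7.58-fold and 17.9-fold for the second.

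Ntrk2, the neurotrophin receptor TrkB, had 25.7 and 24.2 CPM in stroma 2 at P0, 1.14 CPM at P21 and no open nucleus at P56. For the other 5 members named above the adult values of stroma 2 lay between 0 and 1.14 CPM, against 11.4 to 41.5 CPM at P0.

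The 6 members higher in adult in both clusters were those at Nmnat2, Tpm2, Errfi1 and Slco2a1 and 2 near Il17b. The distal member upstream of Errfi1, a feedback inhibitor of the EGF receptor, went from 13.3 and 13.4 CPM to 71.4, 80.7 and 67.1 CPM in stroma 1 and from 23.4 and 20 CPM to 115, 115 and 135 CPM in stroma 2 (-2.48 ± 0.17 in stroma 2, adjusted p = 1.34e-10). The member upstream of Slco2a1, a prostaglandin transporter, with the E-box printed above, rose from 22 and 22.1 CPM to 44.2, 30.3 and 42.9 CPM in stroma 1 and from 24.8 and 28 CPM to 47.8, 58 and 52.5 CPM in stroma 2. Near Il17b, an interleukin 17 family cytokine, one member went from 15.9 and 14 CPM to 61.5, 52.1 and 81.5 CPM in stroma 2 (-2.10 ± 0.20, adjusted p = 1.38e-08). Stages did not overlap for any of the 6 in either cluster.

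The largest fitted differences between clusters, in favour of P0 in stroma 1, were those of members at Tcf20, Gpcpd1, Cdc7, Gmds and Fam110c. All 5 had no open adult nucleus in stroma 1, so their order depends on the prior count of the fit and is no ranking, with bounds of at least 12.4-fold, 6.57-fold, 8.22-fold, 11.6-fold and 11.8-fold, while stroma 2 kept them: the Tcf20 member, in the gene of a transcriptional coactivator, had 25.1 and 26.5 CPM at P0 and 17.1, 27.1 and 17.3 CPM in adult there. In the other direction, members at Casp12, Cspg4, Abcc1, Tenm3 and Rbms3 had the largest fitted differences. The Casp12 member, 383920 bp from the start of this inflammatory caspase gene, had 17.7 and 14.8 CPM at P0 and no open adult nucleus in stroma 2, at least 22.8-fold lower, and 18.3 and 15.8 CPM against 3.4, 10.1 and 1.86 CPM in stroma 1.

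Motifs were compared with all peaks over the same 300 bp, as a description. The E-box CAGCTG lay in 31.7% of members and 19.8% of all peaks, the E-box CAGATG in 29.2% and 22.8%, and CATATG in 7.38% and 5.44%. Any of these 3 E-boxes was found in 55.5% of members, 41.4% of all peaks and 38.9% of the peaks shared by PCT and PST. RUNX (TGTGGTT) lay in 9.78% against 6.97%, TEAD (GGAATG) in 22.9% against 18.8%, MEIS (TGACAG) in 26.6% against 22.6%, the MEF2 motif in 5.58% against 4.55% and the EBF palindrome in 1.52% against 1.00%. Other sets held some of them as often: MEIS lay in 27.3% of the peaks shared by endothelial and immune cells, and away from starts EBF lay in 1.61% of members and 1.64% of the peaks open in both stromal clusters under the 2-fold limit. Away from starts CAGCTG lay in 32.0% of members, 19.8% of all peaks and 27.9% of that second stromal set. There CAGATG lay in 29.4% of members against 22.2% of that set, and CATATG in 7.46% against 3.11%.

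Other motifs were found as often or less often in members. AP-1 (TGANTCA) lay in 10.1% of members and 10.5% of all peaks, and the site AGGTCA bound by NR2F factors in 19.7% and 21.1%. The HNF4 motif CAAAGTCCA of tubule cells lay in 0.369% of members, 0.809% of all peaks and 5.00% of the peaks shared by PCT and PST, and the CTCF motif in 1 member. In all, 18 of 26 motifs searched had a higher share in members than in all peaks. The median GC content of the window was 45.3% in members and 46.7% in all peaks. The GC box GGGCGG lay in 7.06% of members and in 51.1% of the peaks open in both stromal clusters under the 2-fold limit, most of which cover a start.

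**Figure D5:**
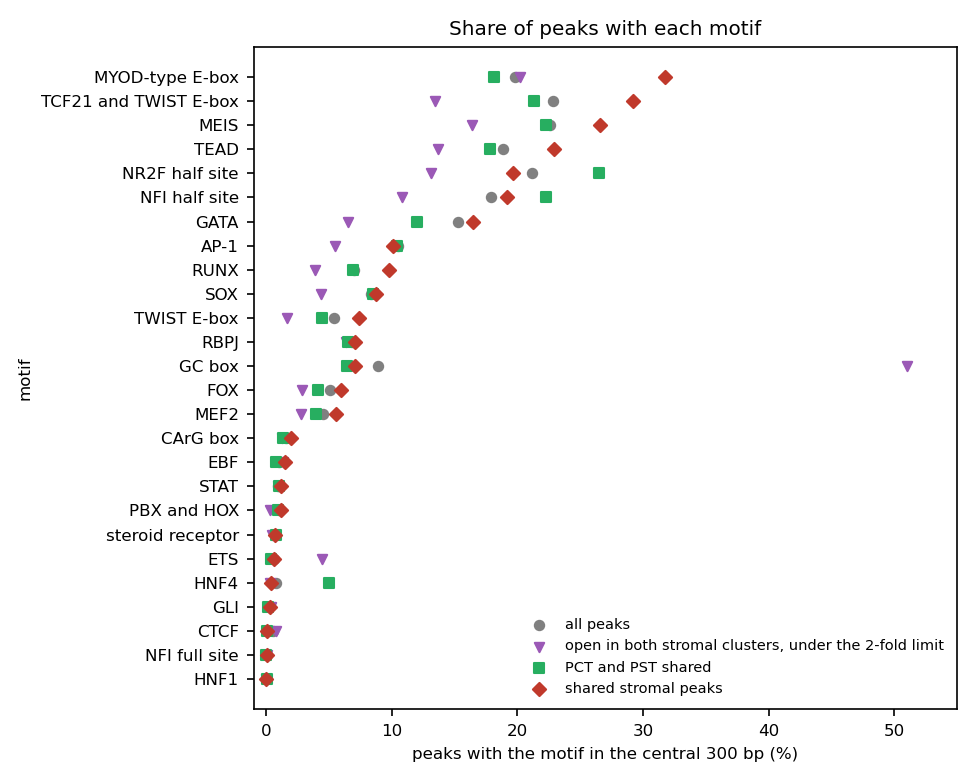
Share of peaks with each motif in the central 300 bp (x axis, %) for 26 motifs (y axis), in the shared stromal peaks (red diamonds), all peaks (grey), peaks open in both stromal clusters under the 2-fold limit (purple) and peaks shared by PCT and PST (green). The red diamonds lie farthest to the right of the grey points for the E-boxes CAGCTG and CAGATG, and the purple point stands apart at 51% for the GC box.

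Within the members, by the stage calls of stroma 2, CAGCTG lay in 32.0% of those higher at P0, 30.0% of those higher in adult and 31.9% of the rest, CAGATG in 30.8%, 27.3% and 27.4%, and CATATG in 8.68%, 5.73% and 5.92%. The EBF motif lay in 14 of 1163 members higher at P0 (1.20%) and in 10 of 227 higher in adult (4.41%), among them the Itga9 member printed above. The EBF counts are small, and none of these shares was tested.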

How the data were processed

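Single nucleus ATAC-seq of mouse kidneys was used from 5 samples, and the members and gene lists were chosen with earlier results of these data known. According to the study's methods, the authors aligned reads to mm10 (GRCm38) with Cell Ranger ATAC 1.1.0, filtered nuclei on fragments, mitochondrial reads and promoter share, clustered them with SnapATAC after Harmony correction, pooled nuclei by cell type for peak calling with MACS2 and merged the resulting peaks. The deposited table holds 1 or 0 for each peak in each nucleus, with the cluster of each nucleus in another deposited table, so the counts analysed here are numbers of nuclei with the peak open.

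Open calls were summed per sample and cluster. Stages were compared by edgeR 4.0.16 (R 4.3.3) with a quasi-likelihood test, TMM scaling, filterByExpr with a minimum count of 10 and Benjamini-Hochberg adjustment over all peaks tested, with a threshold of 0.05. The test of the difference between clusters used the 10 stromal sums with sample as a block. DESeq2 1.42.0 was an alternative. On simulated data with a dispersion of 0.03, 79% of 4-fold changes were recovered in stroma 1 and 82% in stroma 2, and 10% in the difference between clusters. The shares for 2-fold changes were 19%, 17% and 1%.

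Peaks were annotated on GENCODE M21 in the order exon, intron, promoter of 5 kb, distal, so exon includes untranslated regions. Named genes were those of the lists with a member over a start site or in the gene body, the 10 members with the highest lower stromal CPM, the 10 genes with the most members and those tied with the last, up to 10 members in each direction with the largest stage difference past the threshold in both clusters without overlap of samples, up to 5 in each direction with the largest difference between clusters, the 5 peaks on each side of the 2-fold limit, and the 10 windows of 200 kb with the most members. Motifs were searched on both strands of the central 300 bp. Nuclei were not checked for doublets. The other deposited tables, of single cell RNA-seq and of embeddings, were not used. A member picked by the rule for named genes is not reported here.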

Additional observations from a re-analysis of the deposited data

Results flagged for a closer look

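The stage difference of 950 members differed between stroma 1 and stroma 2 by the test of the difference itself. The count is a description, since P0 sums alone could let a member pass the filter. The members furthest toward P0 in stroma 1 had fitted log2 differences of 9.21 (Tcf20), 9.15 (Gpcpd1), 8.98 (Cdc7), 8.96 (Gmds) and 8.86 (Fam110c). All 5 were open in no adult nucleus of stroma 1, so these fitted values depend on the prior count and are no bounds. In the other direction the values were -6.76 (Casp12, open in no adult nucleus of stroma 2), -3.59 (Cspg4), -3.33 (Abcc1), -2.19 (Tenm3) and -2.14 (Rbms3).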

How the results depend on the processing

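A minimum of 5 or 20 CPM gave 5368 or 515 peaks, the mean of the CPM of each sample 918, and the adult samples alone 403, with 83 and 38 called in stroma 1 and 34 and 204 in stroma 2. In stroma 1, the members higher at P0 (864 of 961 tested) became 2026 of 2167 with no filter on low counts and 498 of 596 with the same number of nuclei from each sample. They became 218 of 282 without nuclei rich in PCT and PST peaks and 553 of 683 in the set chosen by the mean of each sample. Those higher in adult (8) became 2, 4, 13 and 32. Leaving out 1 library gave 516 to 1822 and 3 to 13, with the lowest values without either P0 sample (516 and 588 at P0, 3 and 3 in adult). The highest at P0 was without the first P56 sample. All 2167 members passed the filter there, without P21 (1660 and 13) and without the second P56 sample (1472 and 7). With the first P56 sample as the only adult one, the median log2 difference over 2167 members was 2.58, against 0.59 over all peaks tested. The spread within adult cannot be measured there. In stroma 2, those higher at P0 (1163) became 432 of 1307 tested in nuclei thinned to 1000 open peaks and 316 in the set chosen by the mean of each sample. Leaving out 1 adult library gave 977 to 1259. Those higher in adult (227) became 130 with DESeq2, 73 with no filter, 72 in thinned nuclei, 116 with equal nuclei and 375 with the first P56 sample as the only adult one. Leaving out 1 library gave 69 to 275, with 82 and 69 without the first and second P0 sample. The 950 differences between clusters became 332 with DESeq2 and 577 to 761 without 1 library, the lowest without the first P56 sample. The cause was not tested unless stated. The share of distal or intronic members was 84.5% with promoters of 2 kb and 77.9% with promoters first in the order. Of the values of 42 named stage results under the alternatives, 251 kept their call, 32 lost it and none reversed. These results were picked for large differences past the threshold, so the tally does not speak for the other members. In the whole peak in place of 300 bp, 24 motif shares moved. In thinned nuclei of stroma 1, 457 peaks and no member could be tested. The alternatives without nuclei rich in PCT and PST peaks, with 1 adult sample and with the set chosen by the mean of each sample were chosen after seeing the data. With the replicate number as a block, 855 and 8 members were called in stroma 1 and 1142 and 184 in stroma 2. Deviations of the 2 same-numbered pairs correlated at 0.13 and 0.155, too few pairs to show whether the numbers pair the samples. Depth limits adult stroma 1, where 1074 members were open in 3 or fewer nuclei.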
